A study of Mus musculus with 9 samples.

Results

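Caveolae are small flask-shaped pits of the plasma membrane, and the 7 genes described here, Cav1, Cav2, Cav3, Cavin1, Cavin2, Cavin3 and Ehd2, encode their structural proteins. They were named as a family and matched by Ensembl identifier to the table of 51912 genes, in which all 7 were found. They were chosen with their levels in these libraries already known, so their levels and differences are given as a description and carry no test. RNA sequencing covered 9 libraries of cultured C57BL/6 mouse fibroblasts in 3 groups of 3. NF were wild-type fibroblasts labelled normal, CAF were wild-type cancer-associated fibroblasts, and bcatKO_CAF were cancer-associated fibroblasts whose genotype label is beta-catenin -/-. All were kept in DMEM with serum, with no treatment named. The labels give no age, tumour, tissue of origin, way of deleting beta-catenin, or number of animals or cell lines behind each group, so the spread between libraries may be technical and each group may be a single line.

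Caveolins are hairpin membrane proteins that oligomerise in the inner leaflet of the membrane. Caveolin-1 is needed for caveolae in most cells, caveolin-2 assembles with it, and caveolin-3 takes its place in striated muscle. Cavins form a coat on the cytoplasmic side, in which cavin-1 is required and joins with cavin-2 or cavin-3, and the ATPase EHD2 sits at the neck and holds caveolae at the surface. Fibroblasts, endothelial cells, adipocytes and smooth muscle cells are rich in caveolae.

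Some features of the libraries bear on every comparison. Totals ran from 15433810 to 21893574 counts, and levels are given as CPM, counts divided by the library size, which was scaled by the trimmed mean of M-values so that libraries can be compared. Ctnnb1, which encodes beta-catenin, was at 855, 882 and 858 CPM in CAF, while the libraries labelled bcatKO_CAF were at 668, 637 and 627 CPM, 74.4% of the CAF mean (log2 fold change -0.43 ± 0.14 SE, adjusted p = 0.0339, edgeR quasi-likelihood test). Gene-level counts do not show whether part of the gene is deleted, so the label is used as given. NF replicate 1 was closer to the bcatKO_CAF libraries than to its own group: across the tested genes its log2 CPM correlated with theirs at 0.984 to 0.989 and with NF replicates 2 and 3 at 0.935 to 0.951. For the caveola genes and for most other genes named, values against NF are therefore also given without it. The fibroblast markers summed to 34100 to 52900 CPM in CAF, 4980 to 6390 in NF and 6610 to 7430 in bcatKO_CAF. Of the 10 markers 7 were higher and none lower in CAF than in NF, where 20.0% and 19.9% of all genes were. In bcatKO_CAF against CAF 8 were lower and none higher, where 22.7% and 21.5% of all genes were. The intermediate filament gene Vim, the most abundant of them in NF and bcatKO_CAF, was at 4712, 5246 and 5387 CPM on average in NF, CAF and bcatKO_CAF and was not called (edgeR adjusted p = 0.597 and 0.897), whereas the fibroblast surface marker Thy1 averaged 1960 CPM in CAF but 0.389 in NF and 0.239 in bcatKO_CAF.

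The promoters of Cav2 and Cavin2 are shown because these genes had the largest differences between CAF and the other groups, in opposite directions. The 250 bases before each RefSeq start on GRCm38.p6 are printed from 5′ to 3′, for Cav2 at chr6:17280935-17281184 and for Cavin2 at chr1:51288876-51289125, both on the plus strand. Capitals mark every match on either strand to one of 5 motifs: TCF/LEF (CTTTGA), TEAD (GGAATG), SP1 (GGGCGG), the E-box (CANNTG) and the CArG box of SRF.
Cav2: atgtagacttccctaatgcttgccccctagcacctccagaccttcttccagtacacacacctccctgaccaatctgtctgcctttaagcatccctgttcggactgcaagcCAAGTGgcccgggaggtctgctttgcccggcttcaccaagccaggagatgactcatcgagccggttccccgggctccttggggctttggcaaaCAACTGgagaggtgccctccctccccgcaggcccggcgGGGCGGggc
Cavin2: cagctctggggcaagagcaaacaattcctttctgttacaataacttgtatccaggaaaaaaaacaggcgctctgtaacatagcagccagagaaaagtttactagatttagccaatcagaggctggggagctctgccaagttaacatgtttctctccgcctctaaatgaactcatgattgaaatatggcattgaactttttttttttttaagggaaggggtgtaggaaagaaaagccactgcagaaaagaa
The Cav2 stretch was 62% G and C with 10 CpG dinucleotides, and it held 1 SP1 and 2 E-box matches. The Cavin2 stretch was 40.4% G and C with 2 CpG and held none of the 5 motifs. RefSeq entries were found for 6 of the 7 genes, all but Cavin3. Counting all listed starts, SP1 matched in Cav1, Cav2, Cavin1 and Ehd2 and the E-box in Cav1, Cav2, Cav3 and Ehd2, TEAD matched in Cavin1 alone, and TCF/LEF and the CArG box matched in none. Among 32851 promoter stretches of the same length, SP1 was present in 32.7%, the E-box in 66.2%, TEAD in 12.6%, TCF/LEF in 13.8% and the CArG box in 1.47%. A match is only a run of letters, and its absence says only that these letters are not in this window.

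**Figure D1:**
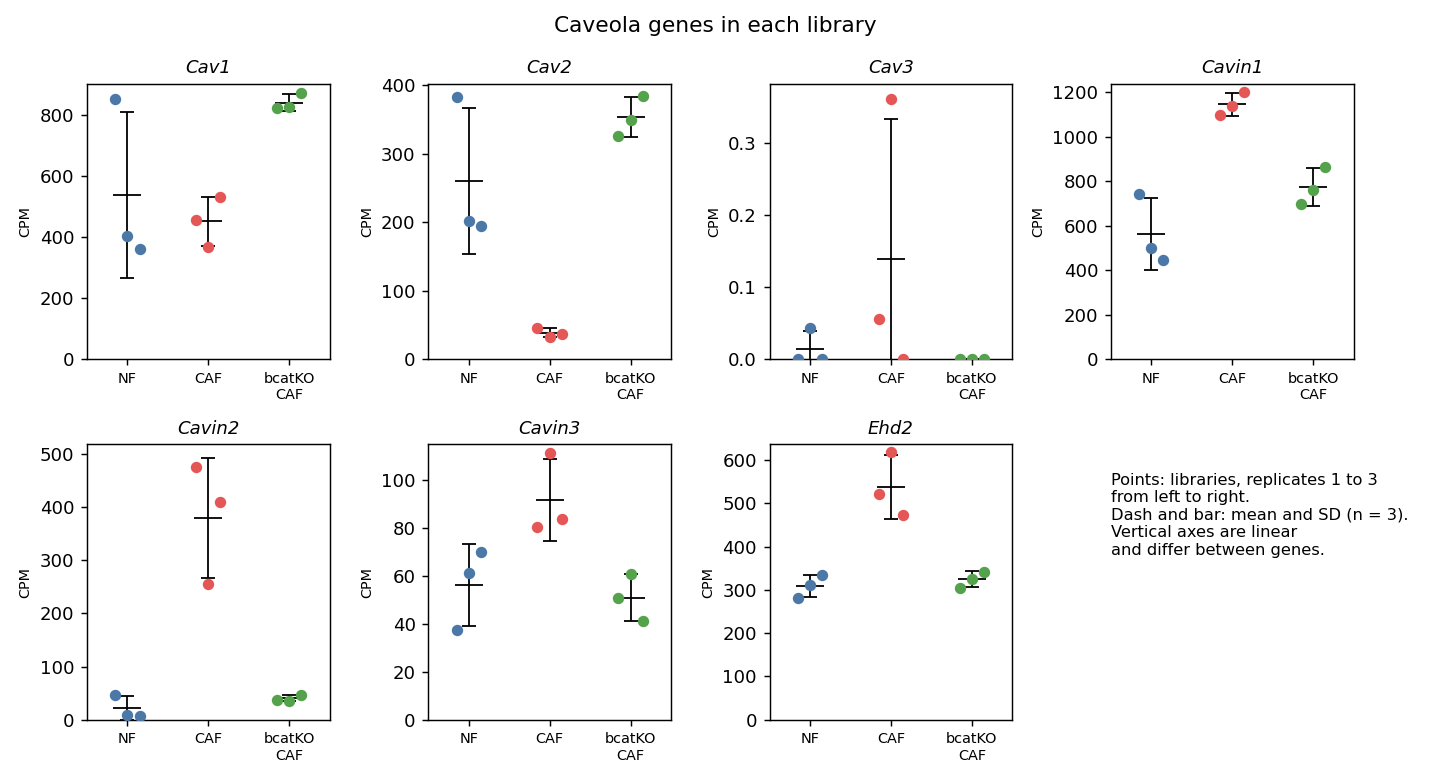
CPM of each caveola gene by group, with 1 point per library, replicates 1 to 3 from left to right, and the mean and SD of 3 libraries. CAF sit lowest for Cav2 (32.3 to 45.6 CPM) and highest for Cavin1, Cavin2, Cavin3 and Ehd2, while Cav3 reaches at most 0.362 CPM in any library.

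Among the caveolins, Cav1 was abundant in all groups and Cav2 was low in CAF. Cav1 (6:17306335-17341452, plus strand) was at 852, 402 and 361 CPM in NF, at 454, 368 and 530 CPM in CAF, while bcatKO_CAF were at 821, 827 and 872 CPM. All 3 bcatKO_CAF libraries lay above all CAF libraries, whereas NF spread across both, with replicate 1 at the bcatKO_CAF level and the other NF libraries at the CAF level. The log2 fold change was -0.26 ± 0.31 (SE) for CAF against NF, 0.90 ± 0.31 for bcatKO_CAF against CAF and 0.64 ± 0.31 for bcatKO_CAF against NF. The first turned to 0.25 and the last became 1.15 without NF replicate 1, so the place of Cav1 in NF rests on that library.

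Cav2 lies 17.2 kb upstream of Cav1 on the same strand (6:17281185-17289115). It was at 383, 202 and 195 CPM in NF, at 45.6, 32.3 and 37.2 CPM in CAF, while bcatKO_CAF were at 326, 350 and 385 CPM. CAF stood apart from every other library, while NF and bcatKO_CAF overlapped through NF replicate 1. The log2 fold change was -2.76 ± 0.28 for CAF against NF and 3.20 ± 0.29 for bcatKO_CAF against CAF, and 0.44 ± 0.26 for bcatKO_CAF against NF. Without NF replicate 1 the CAF against NF value was -2.36 and that of bcatKO_CAF against NF 0.85. The 8 endothelial markers, of another caveola-rich cell type, summed to 2.40 to 4.50 CPM in NF, 7.93 to 16.5 in CAF and 2.23 to 2.70 in bcatKO_CAF, with Tie1 and Cldn5 at 0 in CAF and Cldn5 at 0 in bcatKO_CAF. Of the 4 that could be tested, 3 were higher in CAF than in NF and 1, Vwf, was lower. Of all genes 20.0% were higher and 19.9% lower. Kdr averaged 3.79 against 0.127 CPM and Tek 1.745 against 0.373, both without overlap of the groups. Cdh5 averaged 7.04 against 1.28 CPM, but its CAF libraries ran from 0.907 to 11.1 and overlapped NF, at 0.760 to 1.72. The groups overlapped for Vwf as well. The 7 immune cell markers summed to 23.4 to 42.2 CPM in NF, 3.44 to 5.88 in CAF and 18.6 to 24.4 in bcatKO_CAF, with Cd3e at 0 in NF and Cd79a at 0 in CAF; the macrophage gene Cd68, the only one of 2 tested that was called lower in CAF than in NF, made up most of the NF and bcatKO_CAF sums, at 28.7, 1.34 and 20.0 CPM on average in NF, CAF and bcatKO_CAF. Csf1r, the other immune marker tested, ran opposite to Cd68 between CAF and the other groups, at 0.982, 3.39 and 0.408 CPM in the same order. It was not called in CAF against NF and was lower in bcatKO_CAF than in CAF (edgeR adjusted p = 0.0295). Only 1 of the 7 immune markers averaged over 1 CPM in NF, and likewise in bcatKO_CAF. Adipocyte markers summed to at most 3.08 CPM in any library. The part of these markers in the differences was not tested. Fewer cells of a type and less RNA per cell cannot be told apart in these bulk libraries.

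Cav3, the muscle caveolin (6:112459505-112472872, plus strand), was all but absent. It had 0, 1 and 0 counts in NF, 1, 7 and 0 in CAF and 0, 0 and 0 in bcatKO_CAF, and it did not pass the filter on low counts, so it was not tested. For the bcatKO_CAF group a total of 0 allows up to 0.059 CPM (3 counts over the group, counting error only). CAF replicate 2 held 7 of the 9 counts. The 7 striated muscle markers summed to 92.0 to 250 CPM in CAF, nearly all of it the skeletal actin Acta1 at a mean of 171 CPM, against 0.431 to 1.45 CPM in NF, with Myog at 0, and 0.514 to 0.934 CPM in bcatKO_CAF, with Myod1, Myog, Myh3 and Mb at 0. In CAF as well Myod1, Myog, Ckm and Mb averaged 0.0173 to 0.125 CPM, and of the 2 markers that could be tested, Acta1 was called higher in CAF than in NF and Tnnt3 was not called. The part of Acta1 and the other markers in the Cav3 counts was not tested.

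Cavin1, Cavin2 and Cavin3 were highest in CAF. Cavin1, the cavin required for caveolae (11:100956733-100970887, minus strand), was at 745, 500 and 444 CPM in NF, at 1098, 1141 and 1200 CPM in CAF, while bcatKO_CAF were at 696, 763 and 864 CPM. No CAF library overlapped another group, and per kilobase of exon Cavin1 ranked 73 to 88 among 51633 genes in CAF. Log2 fold changes were 1.03 ± 0.21 for CAF against NF, -0.57 ± 0.21 for bcatKO_CAF against CAF and 0.46 ± 0.21 for bcatKO_CAF against NF; without NF replicate 1 the first was 1.29 and the last 0.73.

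Cavin2 had the largest difference between CAF and NF of the 6 tested genes. It is the serum deprivation response gene, and its protein helps shape caveolar membrane (1:51289126-51302960, plus strand). It was at 47.3, 9.47 and 7.14 CPM in NF, at 475, 255 and 410 CPM in CAF, while bcatKO_CAF were at 37.8, 36.0 and 46.6 CPM. The CAF libraries were all far above the others, and within NF replicate 1 stood near the bcatKO_CAF level. Log2 fold changes were 4.16 ± 0.68 for CAF against NF, -3.24 ± 0.65 for bcatKO_CAF against CAF and 0.92 ± 0.61 for bcatKO_CAF against NF. CAF against NF, with NF replicate 1 left out, came to 5.52 and bcatKO_CAF against NF to 2.28. Of the 9 smooth muscle and pericyte markers 7 were higher in CAF than in NF, and 2, Cspg4 and Rgs5, were lower. Of all genes 20.0% were higher and 19.9% lower. The list summed to 6740 to 9430 CPM in CAF, 162 to 820 in NF and 551 to 1140 in bcatKO_CAF, with Des at 0 in bcatKO_CAF. Its members did not move together. Acta2, the most abundant in CAF, averaged 3.27, 5059 and 6.12 CPM in NF, CAF and bcatKO_CAF. Cspg4, the most abundant in NF and bcatKO_CAF, ran opposite to Cavin2 between CAF and the other groups, at 400, 92.2 and 834 CPM on average. Its NF libraries ran from 151 to 803.5 CPM. The 7 epithelial markers, of which 2 could be tested and Krt19 was called higher in CAF than in NF, summed to 29.7 to 38.8 CPM in CAF against 0.633 to 3.54 in NF and 0.346 to 0.519 in bcatKO_CAF, with Krt8 and Krt14 at 0 in bcatKO_CAF; Krt19, which encodes keratin 19, made up most of the CAF sum, at 26.2 CPM. The part of either list in the result was not tested.

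Cavin3, a partner of cavin-1 that binds protein kinase C delta (7:105480083-105482300, minus strand), was the least abundant of the 3 cavins in CAF per kilobase of exon. It was at 37.2, 61.3 and 69.8 CPM in NF, at 80.1, 111 and 83.6 CPM in CAF, while bcatKO_CAF were at 50.9, 60.8 and 41.0 CPM. CAF lay above the other groups, and NF and bcatKO_CAF overlapped. Log2 fold changes were 0.70 ± 0.25, -0.84 ± 0.25 and -0.14 ± 0.25 for CAF against NF, bcatKO_CAF against CAF and bcatKO_CAF against NF. Without NF replicate 1, the lowest NF library for this gene, CAF against NF was 0.49 and bcatKO_CAF against NF -0.35. Its call in CAF against NF was also lost without any 1 CAF library, bcatKO_CAF replicate 1 or 2, or NF replicate 2 (0.56 to 0.80).

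Ehd2, the gene of the neck ATPase (7:15946958-15967567, minus strand), was at 282, 311 and 334 CPM in NF, at 521, 619 and 472 CPM in CAF, while bcatKO_CAF were at 305, 325 and 342 CPM. CAF were higher than both other groups without overlap, and the ranges of NF and bcatKO_CAF overlapped for the most part. Log2 fold changes were 0.80 ± 0.15, -0.73 ± 0.15 and 0.07 ± 0.15 in the same order, and without NF replicate 1 the first and last were 0.75 and 0.02.

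**Figure D2:**
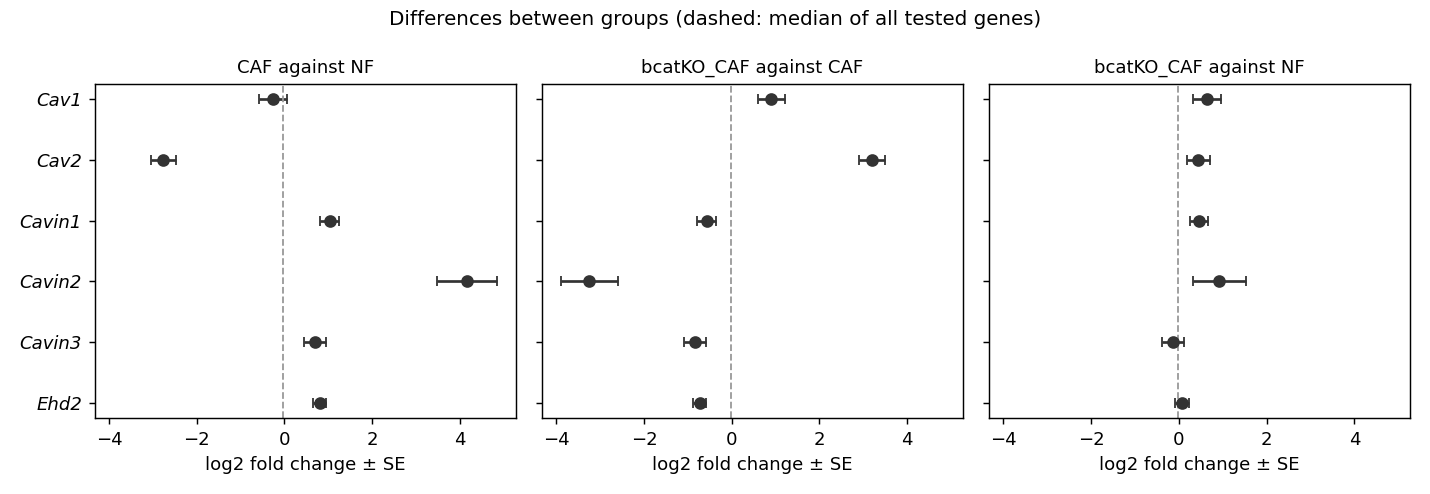
Log2 fold change and SE of the 6 tested caveola genes in each comparison, with the median of all tested genes as a dashed line. Cav2 and Cavin2 lie farthest from 0 on opposite sides in both comparisons with CAF, and all values of bcatKO_CAF against NF lie between -0.14 and 0.92.

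Calls were made on the whole table, at an adjusted p under 0.05 over 14314 genes, and 6 of the 7 genes could be tested. For CAF against NF, 4 were called higher, where 20.0% of all genes were, and 1 lower, where 19.9% were; the libraries of the groups did not overlap for 5 of 6, and for 48.2% of all genes. Without NF replicate 1, 3 were called higher and 1 lower. For bcatKO_CAF against CAF, 2 were called higher, where 21.5% of all genes were, and 3 lower, where 22.7% were; Cavin1 was not called, and the groups did not overlap for 6 of 6, against 65.7% of all genes. The count of 5 became 3 without CAF replicate 2, bcatKO_CAF replicate 1 or bcatKO_CAF replicate 3. For bcatKO_CAF against NF none was called in either direction, where 0% of all genes were called higher and 0% lower by edgeR; 0 of the 6 had an unadjusted p under 0.05, as had 702 of all genes, and the groups overlapped for all 6, with 6.87% of all genes not overlapping. DESeq2 called 6 genes of the table and limma-voom 0 there, none of them a caveola gene. Without NF replicate 1, 4 caveola genes and 2659 genes of the table were called in that comparison, the 4 being Cav1, Cav2, Cavin1 and Cavin2, all higher in bcatKO_CAF. Because the genes were picked on these contrasts, nothing is read from these counts; the comparisons also share libraries.

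The make-up of the caveola transcripts, taken per kilobase of exon within each library so that library scaling cancels, differed most between CAF and the rest. The Cav2 to Cav1 ratio was 0.465, 0.518 and 0.558 in NF, 0.104, 0.0906 and 0.0724 in CAF, and 0.410, 0.437 and 0.456 in bcatKO_CAF. CAF were far below both, and NF replicate 1 lay between the other NF libraries and bcatKO_CAF. The level of the 3 cavins together over Cav1 and Cav2 together was 0.907 ± 0.199 (SD, n = 3) in NF, 3.56 ± 0.44 in CAF and 0.741 ± 0.031 in bcatKO_CAF. NF replicate 1 was at 0.678 and NF replicates 2 and 3 at 1.01 and 1.03.

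Within the coat, Cavin2 made up 6.30%, 1.73% and 1.39% of the 3 cavins in NF replicates 1, 2 and 3, so that the NF mean of 3.14% ± 2.74 rests on replicate 1, and 24.7% ± 6.42 in CAF and 5.06% ± 0.487 in bcatKO_CAF. Cavin1 made up the most in every group, at 78.6% ± 5.52, 64.2% ± 3.97 and 83.0% ± 2.37 in that order. Of the 6 genes together, Cav1 was 30.6% ± 5.90 of the level per kilobase in NF, 17.5% ± 2.35 in CAF and 36.3% ± 1.22 in bcatKO_CAF, and Cav2 was 15.5% ± 1.58, 1.54% ± 0.234 and 15.7% ± 0.338.

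**Figure D3:**
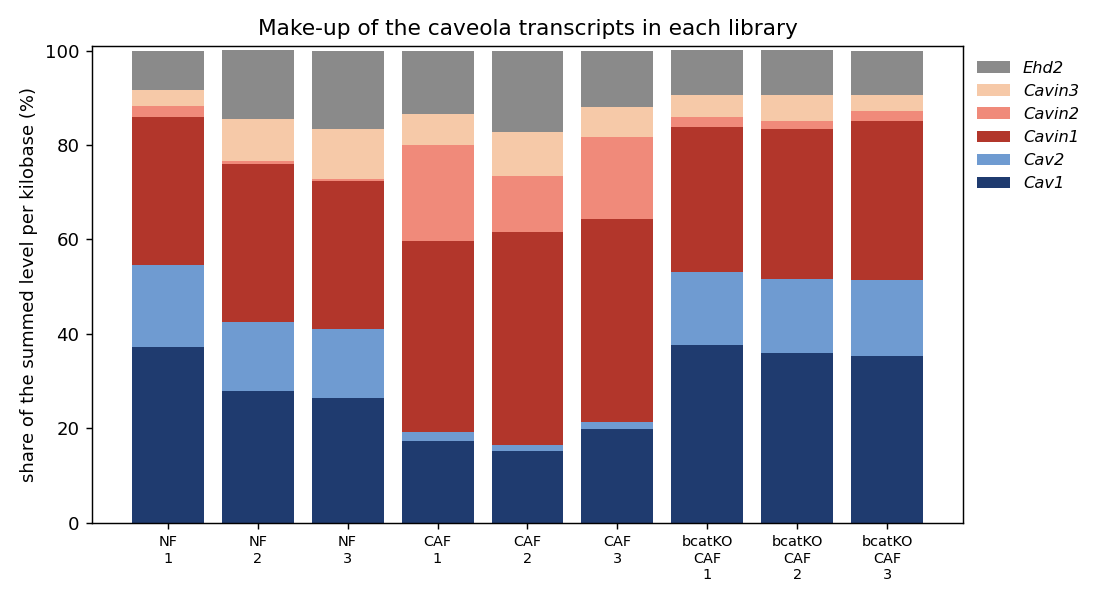
Share of the summed level per kilobase of exon that each of the 6 detected caveola genes takes in each of the 9 libraries. The blue caveolin segments are shortest in the 3 CAF libraries, where Cav2 takes 1.54% on average, and the Cavin2 segment, at 16.5% on average, is broadest there.

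Ordered by their level per kilobase, the mean levels in CAF ran Cavin1 at 320, Cav1 at 131, Cavin2 at 124, Ehd2 at 105, Cavin3 at 55.0 and Cav2 at 11.5 CPM per kilobase. The ranges of Cav1, Cavin2 and Ehd2 over the CAF libraries overlapped. In bcatKO_CAF the order was Cav1 at 244, Cavin1 at 216, Cav2 at 106, Ehd2 at 63.3, Cavin3 at 30.6 and Cavin2 at 13.1. The ranges of Cav1 and Cavin1 overlapped there, but Cavin1 was below Cav1 in each library, with ratios of 0.814, 0.886 and 0.951. In NF it was Cavin1 at 157, Cav1 at 156, Cav2 at 77.9, Ehd2 at 60.3, Cavin3 at 33.7 and Cavin2 at 6.97. The ranges of Cavin1 and Cav1 overlapped there, as did those of Cav1 and Cav2 and those of Cav2 and Ehd2. Within each NF library Cav2 was nevertheless below Cav1, with ratios of 0.465, 0.518 and 0.558. Ehd2 was above Cav2 in NF replicate 2 (60.8 against 60.4) and NF replicate 3 (65.2 against 58.4). The higher NF mean of Cav2 thus rests on replicate 1. With lengths of the longest transcript Cav1 averaged 196 and Cavin1 161 in NF. For Cavin2 the NF libraries were at 15.5, 3.10 and 2.34, with replicate 1 the highest.

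Likeness of pattern was measured as the root-mean-square difference of log2 CPM over the 9 libraries, after centring each gene on its mean. Among the caveola genes the closest pair was Cavin3 and Ehd2, at 0.25, followed by Cavin1 and Ehd2, at 0.32, and the farthest was Cav2 and Cavin2, at 3.29. Among 10097 other genes, those closest to Cav1 were Rell1 (0.095), Aldh6a1, Phc3, Aasdh and Fam135a (0.128). Those closest to Cavin1 were Mki67 (0.117), the proliferation marker, then Ehbp1, Zmat3, Isoc1 and Heatr5a (0.125). These are descriptions over libraries that share their 3 groups.

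Genes around the family were read from lists of relatives, membrane-bending proteins, kinases and the filamin anchor, proteins described in caveolae, flotillins and the clathrin coat. The lists were chosen with earlier results of these data known. Their calls and adjusted p therefore describe these libraries and lend the differences no support. Of 35 such genes 33 were tested, and 10 were higher and 9 lower in CAF than in NF, where 20.0% of all genes were higher and 19.9% lower, with a median log2 fold change of 0.16 against -0.04 for all genes; without NF replicate 1, 13 were higher and 10 lower. For bcatKO_CAF against CAF, 10 were higher and 9 lower, where 21.5% and 22.7% of all genes were, with a median of 0.01 against -0.01. For bcatKO_CAF against NF none was called by edgeR, DESeq2 or limma-voom, 1 had an unadjusted p under 0.05, and the median was 0.08 against -0.02; without NF replicate 1, 9 were called, 8 higher and 1 lower.

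Among the 4 cavin and EHD relatives, Cavin4, the muscle cavin, was at 86.4, 61.9 and 55.4 CPM in NF, at 1.51, 1.50 and 1.19 CPM in CAF, while bcatKO_CAF were at 111, 71.6 and 104 CPM. The CAF libraries were nearly without it, and NF and bcatKO_CAF overlapped. It fell by 5.59 ± 0.28 on the log2 scale in CAF against NF (adjusted p = 1.32e-06) and was 6.08 ± 0.28 higher in bcatKO_CAF than in CAF (adjusted p = 1.04e-06, both edgeR quasi-likelihood test), the first value being -5.37 without NF replicate 1. Of the striated muscle markers given beside Cav3, Acta1 was higher in CAF and the rest averaged at most 1.80 CPM in every group; their part in the Cavin4 values was not tested.

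Ehd3, an EHD2 paralogue that works in endosomal recycling, was at 0.190, 0.896 and 3.38 CPM in NF, at 24.5, 26.8 and 19.2 CPM in CAF, while bcatKO_CAF were at 1.16, 0.830 and 0.404 CPM. It was higher in CAF than in NF by 3.99 ± 0.74 log2 units (edgeR adjusted p = 0.00217) and lower in bcatKO_CAF than in CAF (-4.88 ± 0.78, edgeR adjusted p = 0.000958). Ehd4 ran opposite between CAF and the other groups only. It was at 85.3, 93.0 and 240 CPM in NF, 51.1, 48.4 and 47.1 CPM in CAF and 139, 123 and 82.3 CPM in bcatKO_CAF. Its log2 fold changes were -1.51 ± 0.38 (edgeR adjusted p = 0.0107) and 1.23 ± 0.38 (edgeR adjusted p = 0.0247), the latter call being lost without any 1 CAF library or without bcatKO_CAF replicate 1 or 2 (log2 fold change 1.08 to 1.26). Ehd1 lay between 5.49 and 11.5 CPM in all libraries and was not called in any of the 3 comparisons. When NF replicate 1 was left out, CAF against NF came to 3.52 for Ehd3 and -1.75 for Ehd4. NF replicate 3 was the highest NF library for both, and without it the values were 5.33 and -0.87, both still called.

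**Figure D4:**
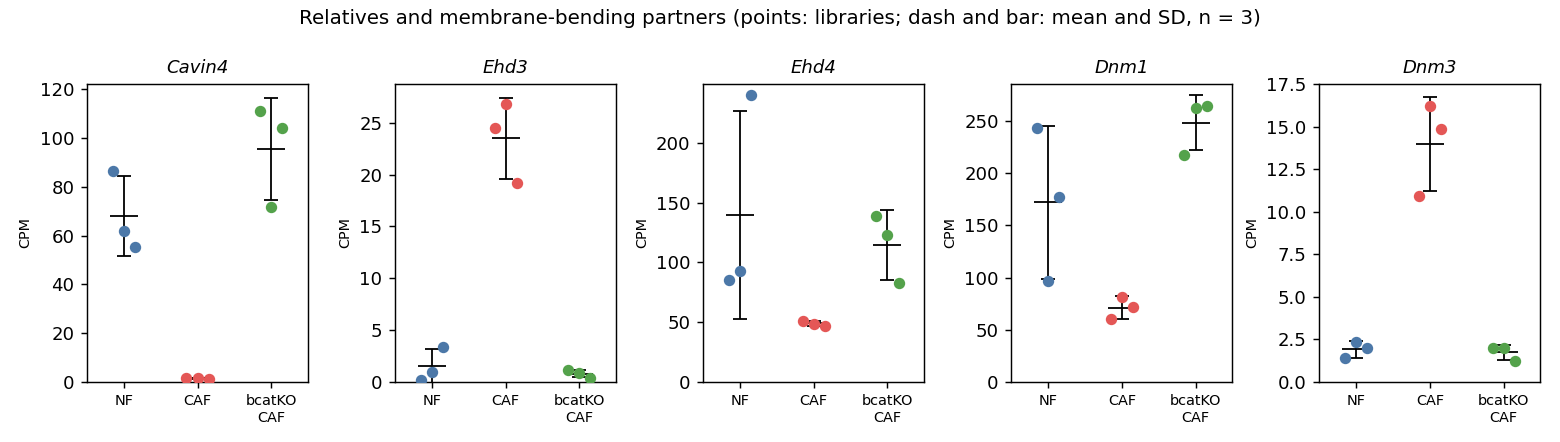
CPM of Cavin4, Ehd3, Ehd4 and the dynamins Dnm1 and Dnm3 in each library, with mean and SD of 3 libraries; vertical axes differ. Cavin4, Ehd4 and Dnm1 sit lowest in CAF (Cavin4 at 1.19 to 1.51 CPM), and Ehd3 and Dnm3 sit highest there.

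Of the 5 tested membrane-bending partners, 1 was higher and 1 lower in CAF than in NF, where 20.0% and 19.9% of all genes were. In bcatKO_CAF against CAF 2 were higher and 1 lower, where 21.5% and 22.7% of all genes were. Dynamins are GTPases that cut membrane necks. Dnm1 averaged 172 ± 73.4 CPM in NF, 71.2 ± 10.9 in CAF and 248 ± 26.4 in bcatKO_CAF (SD, n = 3), with log2 fold changes of -1.27 ± 0.29 for CAF against NF and 1.80 ± 0.30 for bcatKO_CAF against CAF (edgeR adjusted p = 0.00696 and 0.00112). Dnm3 ran the other way, at 1.90 ± 0.479, 14.0 ± 2.76 and 1.73 ± 0.445 CPM, with 2.87 ± 0.31 and -3.02 ± 0.31 (edgeR adjusted p = 9.82e-05 and 8.1e-05). With NF replicate 1 left out, CAF against NF came to -0.93 for Dnm1 and 2.70 for Dnm3, both still called. Dnm2, the dynamin of most tissues, was at 186 ± 65.2, 205 ± 32.4 and 237 ± 22.8 CPM and was not called. Pacsin3, a curvature-sensing F-BAR protein, was higher in bcatKO_CAF than in CAF (0.88 ± 0.24, edgeR adjusted p = 0.0155), a call lost without CAF replicate 1 (0.81) or bcatKO_CAF replicate 3 (0.76).

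Of the 6 genes of caveolin kinases and the filamin anchor, 3 were higher and 1 lower in CAF than in NF (20.0% and 19.9% of all genes). In bcatKO_CAF against CAF 1 was higher and 2 lower (21.5% and 22.7% of all genes). Flna encodes filamin A, which links caveolae to actin stress fibres. It was at 1148 ± 121 CPM in NF, 4531 ± 200.5 in CAF and 1157 ± 54.2 in bcatKO_CAF, a log2 difference of 1.98 ± 0.17 and then -1.97 ± 0.17 (edgeR adjusted p = 2.9e-05 and 3.06e-05); the first value lay between 1.81 and 2.05 under every alternative run, each library left out included. The related kinases Abl1 and Abl2 differed in opposite directions: Abl1 by 0.71 ± 0.15 and -0.55 ± 0.15 (edgeR adjusted p = 0.00418 and 0.0147), Abl2 by -1.43 ± 0.17 and 1.41 ± 0.17 (edgeR adjusted p = 0.000155 and 0.000176). The second call of Abl1 was lost without bcatKO_CAF replicate 2 (-0.52) or replicate 3 (-0.54). Fyn, a kinase that phosphorylates caveolin-1, was higher in CAF than in NF (1.14 ± 0.36, edgeR adjusted p = 0.0302), a call lost without any 1 CAF library or without NF replicate 2 or 3 (0.88 to 1.22). CAF against NF, with NF replicate 1 left out, came to 0.82 for Abl1, -1.41 for Abl2 and 1.74 for Fyn.

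All 5 tested proteins described in caveolae were called in both comparisons with CAF, which share the CAF libraries. The share of all genes called in both is not given here, so nothing is read from this count. In CAF against NF 2 were higher and 3 lower, where 20.0% and 19.9% of all genes were. In bcatKO_CAF against CAF the reverse was seen, where 21.5% of all genes were higher and 22.7% lower. Ror1, a receptor reported to bind caveolin-1 and cavin-1 in human lung cancer cells, was at 7.73 ± 0.600 CPM in CAF with 0 to 8 counts in any other library (5.05 ± 0.71, edgeR adjusted p = 0.000465; -6.24 ± 0.80, edgeR adjusted p = 0.000266). Nos3, the endothelial nitric oxide synthase that caveolin-1 binds, had 0 to 3 counts in CAF libraries and 16 to 61 elsewhere (-4.64 ± 0.74, edgeR adjusted p = 0.000965; 3.87 ± 0.75, edgeR adjusted p = 0.00278). Insr, the insulin receptor, was at 170 ± 44.2, 83.0 ± 4.15 and 195 ± 10.9 CPM in NF, CAF and bcatKO_CAF (-1.04 ± 0.19, edgeR adjusted p = 0.00201; 1.23 ± 0.19, edgeR adjusted p = 0.000756). When NF replicate 1 was left out, CAF against NF came to 4.55 for Ror1, -4.32 for Nos3 and -0.97 for Insr. Without CAF replicate 2 the values of Nos3 were -5.31 and 4.54, and without bcatKO_CAF replicate 2 that of Ror1 in bcatKO_CAF against CAF was -6.83.

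Of the other membrane domains, flotillin and clathrin coat genes were called in both directions. Flot2, a flotillin of non-caveolar domains, was higher in CAF than in NF (0.92 ± 0.22, edgeR adjusted p = 0.00771) and lower in bcatKO_CAF than in CAF (-0.61 ± 0.21, edgeR adjusted p = 0.0419), the latter being lost without any 1 library of those groups (-0.67 to -0.53); Flot1 was not called. The clathrin coat list held 11 genes. For CAF against NF, 2 of them were called higher and 2 lower, beside 20.0% and 19.9% of the whole table. For bcatKO_CAF against CAF the list again had 2 calls in each direction, beside 21.5% higher and 22.7% lower in the whole table. Ap2a2, a subunit of the clathrin adaptor AP-2, was higher in CAF than in NF by 1.44 ± 0.13 and lower in bcatKO_CAF than in CAF (-1.33 ± 0.13, edgeR adjusted p = 3.39e-05 and 5.63e-05). Cltb, a clathrin light chain, was lower in CAF than in NF (-1.58 ± 0.23, edgeR adjusted p = 0.00056) and higher in bcatKO_CAF than in CAF (1.35 ± 0.23, edgeR adjusted p = 0.00132). With NF replicate 1 left out, CAF against NF came to 1.23 for Flot2, 1.50 for Ap2a2 and -1.79 for Cltb.

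Neighbouring genes put the members in their genomic setting. Within 200 kb of a member lay 53 other protein-coding genes, of which 35 were tested. In CAF against NF, 8 were higher and 12 lower, where 20.0% and 19.9% of all genes were (median 0.05; 10 and 12 without NF replicate 1); in bcatKO_CAF against CAF, 11 were higher and 9 lower, where 21.5% and 22.7% of all genes were (median 0.06); in bcatKO_CAF against NF none was called by edgeR, DESeq2 or limma-voom, 0 had an unadjusted p under 0.05 (median 0.06), and 4 were called without NF replicate 1. Met, the hepatocyte growth factor receptor 122.3 kb beyond Cav1, was at 212, 147 and 185 CPM in NF, at 60.7, 42.9 and 52.5 CPM in CAF, while bcatKO_CAF were at 218, 221 and 242 CPM. It was lower in CAF than in NF (-1.80 ± 0.18, edgeR adjusted p = 6.4e-05; -1.66 without NF replicate 1) and higher in bcatKO_CAF than in CAF (2.13 ± 0.18, edgeR adjusted p = 2.78e-05). Tes, 175.4 kb on the other side of Cav2, was lower in CAF than in NF by a smaller amount (-0.69 ± 0.20, edgeR adjusted p = 0.0197), a call lost without CAF replicate 2 (-0.70), CAF replicate 3 (-0.51) or NF replicate 2 (-0.63) and kept without NF replicate 1 (-0.66), and in bcatKO_CAF against CAF it was at 0.48 ± 0.20 (edgeR adjusted p = 0.0742). Cav1, between Cav2 and Met on the chromosome, was the only one of these genes with overlapping CAF and NF libraries.

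**Figure D5:**
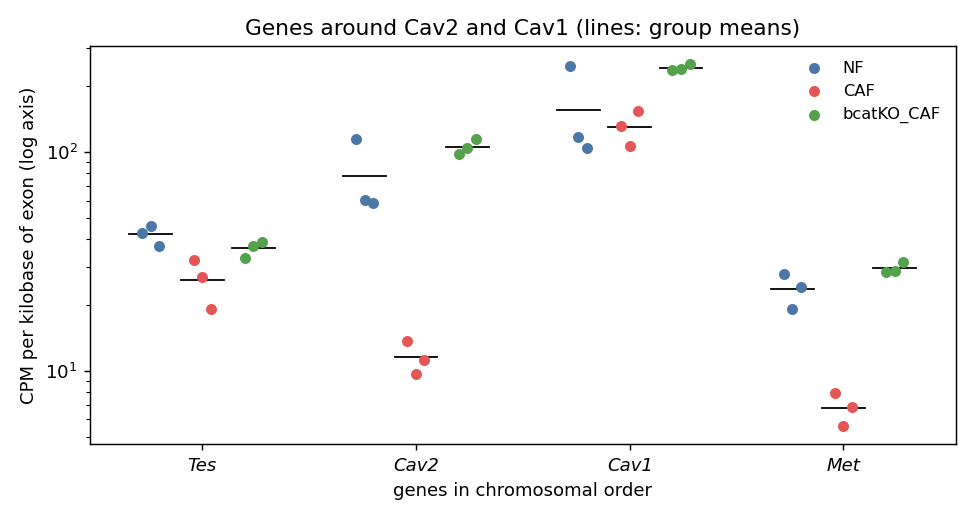
CPM per kilobase of exon, on a log axis, for Tes, Cav2, Cav1 and Met in chromosomal order, with 1 point per library and lines at group means. Cav2 and Met are lowest in CAF without overlap, whereas the CAF and NF libraries of Cav1 overlap.

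Of the tested neighbours of Cavin1, 2 were higher and 6 lower in CAF than in NF, where 20.0% and 19.9% of all genes were. Ghdc, Stat5a, Atp6v0a1, Hsd17b1, Retreg3, Tubg1 and Tubg2 were tested and not called. Stat3, a transcription factor gene 17.2 kb from Cavin1, was higher in CAF than in NF (1.23 ± 0.19, edgeR adjusted p = 0.000868) and lower in bcatKO_CAF than in CAF (-1.01 ± 0.19, edgeR adjusted p = 0.00246). The other higher neighbour was Stat5b (0.71 ± 0.15, edgeR adjusted p = 0.00424), and the lower ones were Cntnap1 (-2.03), Naglu (-1.76), Mlx (-1.09), Plekhh3 (-0.93), Psmc3ip (-0.81) and Coasy (-0.78), with edgeR adjusted p from 0.000604 to 0.017. Both genes within 200 kb of Cavin2, Tmeff2 and Nabp1, were higher in CAF than in NF, by 3.66 ± 0.60 and 1.53 ± 0.42 (edgeR adjusted p = 0.00108 and 0.0162); the Nabp1 call was lost without CAF replicate 1 (1.20). Leaving out NF replicate 1, these differences were 1.22 for Stat3, 4.46 for Tmeff2 and 1.23 for Nabp1. Nop53, 0.9 kb from Ehd2, was not called, at 82.7 ± 14.9 CPM in CAF and 82.8 ± 21.5 in NF (0.00 ± 0.22, edgeR adjusted p = 0.999). Bicra, 3.1 kb from Ehd2, was higher in CAF than in NF (0.98 ± 0.22, edgeR adjusted p = 0.00649). Of the neighbours of Cav3, Lmcd1 was higher (5.45 ± 0.67, edgeR adjusted p = 0.000208), at 4.175 against 0.0849 CPM. Oxtr (-7.28 ± 2.19, edgeR adjusted p = 0.0331) and Rad18 (-1.28 ± 0.16, edgeR adjusted p = 0.000267) were lower. Oxtr was near the floor, at 0 CPM in CAF against 1.049 ± 1.187 (SD) in NF, and its groups overlapped. The Oxtr call was lost under 7 of 15 alternatives. Antisense genes that overlap Cav1, Cav2, Cavin2 and Cavin3 held 0 to 6 counts per library, at most 0.28% of the member's own count.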

How the data were processed

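The authors deposited unnormalised whole-number counts of reads for each Ensembl gene in 9 libraries; their table of the whole series and the files of single samples differed in 0 cells. Per the submitters' processing notes, bcl2fastq, TopHat, edgeR and build mm10 were used; their versions, how reads were assigned to genes and whether strand was used are not given in the sources used. Grouping followed the labels for source and genotype, and replicate numbers, given in record order, pair nothing.

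Symbols matched 51633 of 51912 genes through GENCODE M21 on GRCm38, which also gave coordinates and exon lengths. Genes were kept with filterByExpr (14314) and tested in 1 edgeR 4.0.16 quasi-likelihood fit of all 9 libraries with group as the only term, TMM scaling and Benjamini-Hochberg adjustment, called under 0.05, in R 4.3.3. SEs came from the F statistic. Libraries held 15433810 to 21893574 counts; 3 counts equal 0.128 to 0.193 CPM, and floors cover counting error only. The script was tested on simulated data with the spread of these libraries. Over the 3 comparisons it called 16% to 22% of genes given a log2 change of 1 and 68% to 75% of those given 2. Between 5 and 9 unchanged genes were called, and 0 calls had the wrong sign. A gene that was not called may still differ. The smallest chi-square per gene between a pair of libraries was 19.2, so none was a copy. Between 1.01% and 5.34% of counts fell on Gm42418, a transcript within ribosomal RNA sequence.

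Alternatives were other scalings, filters, DESeq2 1.42.0, limma-voom (limma 3.58.1), fewer samples and leaving out each library. The members and lists were chosen with earlier results of these data known. Named genes were all members, genes of lists of at most 4, up to 4 called genes of each other list by size of change with a mean of at least 1 CPM, some of the neighbours within 200 kb, the 5 genes most like Cav1 and the 5 most like Cavin1 (mean of at least 5 CPM, prior count 2), Ctnnb1, and, for some lists, the most abundant marker of a cell type. Epn2 and Ap2s1 of the clathrin coat and Lipe of the proteins described in caveolae met the rule but were not described. The named neighbours do not follow a rule, and called neighbours are among those left out. Thy1, Myog, Myod1, Ckm, Myh3, Mb, Tie1, Cldn5, Kdr, Tek, Des, Rgs5, Cd3e, Cd79a, Krt8, Krt14, Tnnt3, and Dnm2 of the membrane-bending list, were named after their values were seen. Promoters came from RefSeq (GRCm38.p6).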

Additional observations from a re-analysis of the deposited data

How the results depend on the processing

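Of 306 recomputed log2 fold changes of caveola genes, 275 kept direction and side of the threshold, 18 lost the call, 10 gained it and 3 turned. Cav2, Cavin2 and Ehd2 kept their calls in both comparisons with CAF under every alternative, with Cav2 from -2.93 to -2.36 and 3.08 to 3.34. The members were chosen with their levels known, so kept or lost calls describe the processing only and lend the differences no support. The turned values were Cav1 in CAF against NF without NF replicate 1 (0.25, in a range of -0.47 to 0.25 over omitted libraries) and Cavin3 in bcatKO_CAF against NF, 0.00 without bcatKO_CAF replicate 3 and 0.04 without NF replicate 3 (range -0.35 to 0.04); the cause was not tested. Leaving out single libraries, caveola genes called ranged from 4 to 5 in CAF against NF, from 3 to 6 in bcatKO_CAF against CAF, and from 0 to 4 in bcatKO_CAF against NF, where associated genes ranged from 0 to 9 and neighbours from 0 to 4; NF replicate 1 alone gave the nonzero values. The Cav1 call in bcatKO_CAF against CAF was lost without any 1 library of those groups (0.76 to 1.03). The Cavin3 call in CAF against NF was lost under 9 of 17 alternatives and that in bcatKO_CAF against CAF under 3. Cavin1 in bcatKO_CAF against CAF was called under 6 of 17. Scaling by total counts moved the median of all genes to -0.20 (CAF against NF) and 0.12 (bcatKO_CAF against CAF), and the calls to 2440 higher and 3701 lower, and 3743 higher and 2686 lower, against 2866 and 2847, and 3079 and 3253. Lengths of the longest transcript raised Cav1 in CAF to 164 and Cav2 to 14.0 CPM per kilobase. No paired analysis was possible because the replicate numbers come from record order. With counts of 116 or more per library, depth limits only Cav3 among the members.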
